A study of Mus musculus with 8 samples.

Results

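The 9 genes described here encode enzymes that convert retinol and retinal into each other, make retinoic acid or remove it. They are Rdh7, Rdh9, Rdh10, Rdh11, Rdh16, Aldh1a1, Cyp26a1, Cyp26b1 and Dhrs3, and they were taken from the table by gene symbol. The list itself was chosen with earlier results of these data known. All 9 had a row among the 24940 genes of the liver count table, and all 9 passed the filter that left 12340 genes for testing.

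Retinol (vitamin A) is stored in the liver as retinyl esters, for the most part in stellate cells. Short-chain dehydrogenases of the RDH family oxidize retinol to retinal, and retinal reductases such as DHRS3 and RDH11 return retinal to retinol. Retinal dehydrogenases such as ALDH1A1 oxidize retinal to retinoic acid, which binds the nuclear receptors RAR, themselves partners of RXR. Enzymes of the CYP26 family hydroxylate retinoic acid and so clear it, and their genes are well known to be induced by it.

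Polyadenylated RNA was sequenced from livers of C57BL/6 males. The 4 FxrKO livers (livers 1 to 4, titled FXRKO) were Bcl6 fl/fl and homozygous for a whole-body deletion of Fxr (Nr1h4), the bile acid receptor. The 4 Bcl6LKOFxrKO livers (livers 5 to 8) had the same alleles plus Alb-Cre, which is driven by the albumin promoter and removes Bcl6, a transcriptional repressor, in hepatocytes. Both groups therefore lacked Fxr and differed in Alb-Cre, so the comparison addresses loss of hepatocyte Bcl6 in animals without Fxr. In the paper, Bcl6LKOFxrKO males had cholestatic liver damage compared with FxrKO males, with higher bile acids and more collagen staining. The part of this liver disease in the differences given here was not tested. No ages were given for the animals, Bcl6 in other cell types of the liver was not measured, and no liver with Fxr was analysed here. The paper's methods name free feeding or a fast of 4 hours as the default, without saying which applied to these livers. Between 7586241 and 11839503 reads per liver were counted, and a gene's level is given as CPM, its reads as a share of the library's total after scaling for composition. Bcl6 itself was at 21.1 to 65.1 CPM in FxrKO livers, lowest in liver 3, and at 4.61 to 11.9 CPM in Bcl6LKOFxrKO livers, without overlap. Nr1h4 still had counts in every liver, at 56.7 to 62.6 CPM in FxrKO and 39.4 to 48.1 CPM in Bcl6LKOFxrKO livers, and was called lower in the latter (log2 fold change -0.46, adjusted p = 0.00498 by edgeR). Since the row sums all exons of the gene, it does not check the deletion.

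Among the 9 enzymes, Cyp26a1 and Rdh16 rose in Bcl6LKOFxrKO livers at an adjusted p under 0.05 in edgeR's quasi-likelihood test. None fell by edgeR, DESeq2 or limma voom, and 0 were lower at an unadjusted p under 0.05. Of all genes tested, 16.2% were called higher and 13.5% lower by the same rule. The 2 enzymes called also passed a stricter rule that asks for a log2 fold change above 0.5, which 14.1% of genes met in the higher direction and 9.84% in the lower. The median log2 fold change of the 9 was 0.31, against 0.01 over all genes tested. CPM ranges of the genotypes did not overlap for 2 enzymes that were higher and 1 that was lower, against 16.1% and 15.2% of genes tested. In whole liver, a change in the number of cells of a type and one in RNA per cell cannot be told apart.

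**Figure D1:**
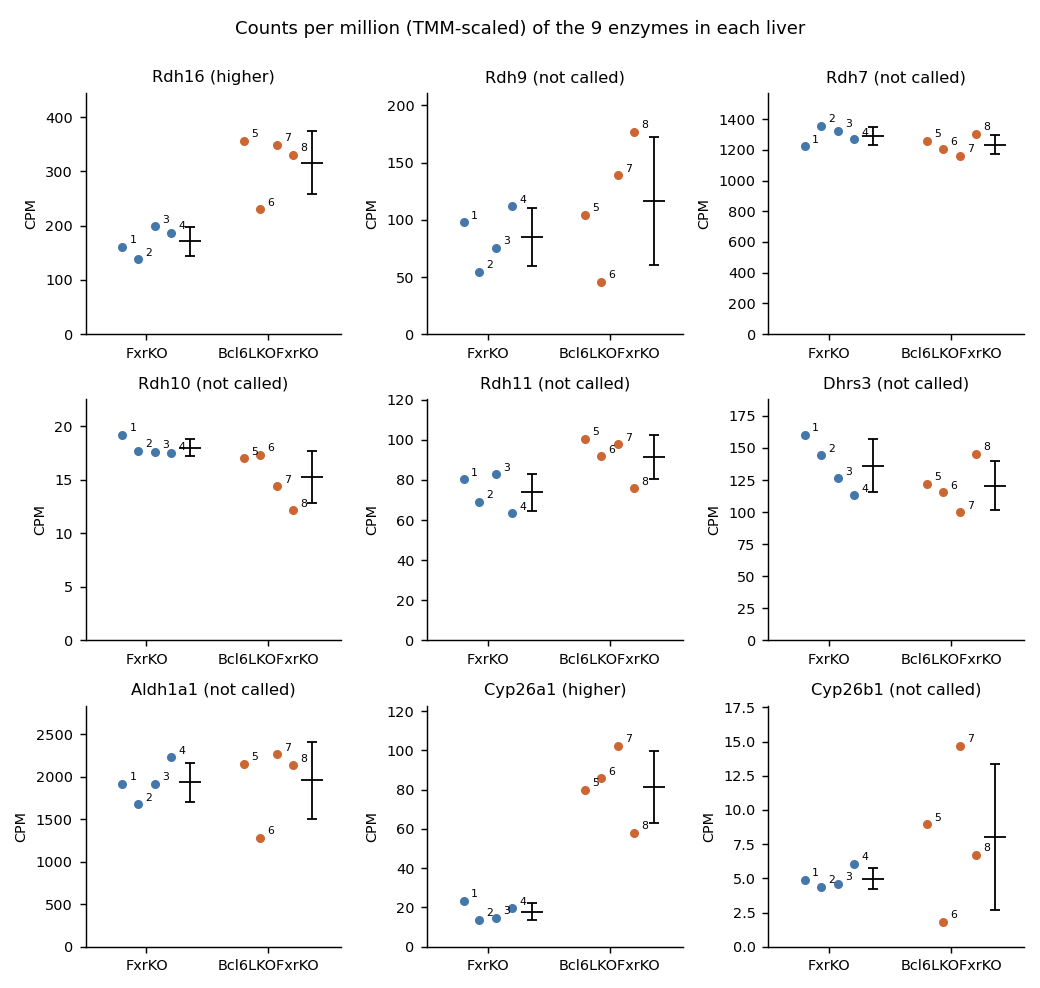
Level in CPM (y axis, starting at 0) of each of the 9 enzymes in 4 FxrKO livers (blue) and 4 Bcl6LKOFxrKO livers (orange). Numbers name the liver, bars to the right of the points are the mean and SD, and titles give the call at an adjusted p under 0.05. For Cyp26a1 and Rdh16 all orange points lie above all blue points, and liver 6 is the lowest orange point for Rdh16, Rdh9, Aldh1a1 and Cyp26b1.

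Levels between genes were compared as CPM per kb of the counted transcript. In FxrKO livers the order of mean levels was Rdh7, Aldh1a1, Dhrs3, Rdh16, Rdh9, Rdh11, Cyp26a1, Rdh10 and Cyp26b1. Neighbours in that order overlapped between livers for Dhrs3 and Rdh16, for Rdh9 and Rdh11, and for Cyp26a1 and Rdh10. Rdh7, at 769 to 853 CPM per kb, and Aldh1a1, at 564 to 751 CPM per kb, stood far above the rest, and together they made up 87.6% to 89.8% of the summed level of the 9. Cyp26b1 was lowest, at 0.921 to 1.28 CPM per kb. In Bcl6LKOFxrKO livers the order was Rdh7, Aldh1a1, Rdh16, Dhrs3, Cyp26a1, Rdh9, Rdh11, Rdh10 and Cyp26b1, with overlap between Rdh7 and Aldh1a1 and among Dhrs3, Cyp26a1, Rdh9 and Rdh11 as neighbours. Cyp26a1 thus went from the range of Rdh10 to that of Dhrs3, and the share of Rdh7 and Aldh1a1 together was 83.2% to 84.2%.

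Cyp26a1 (mm10 chr19:37697808-37701536, forward strand), the main retinoic acid hydroxylase of liver, showed the largest change of the 9. Its CPM was 23.3, 13.7, 14.8 and 19.7 in FxrKO livers 1 to 4. In Bcl6LKOFxrKO livers 5 to 8 it was 79.8, 85.7, 102 and 58.0. Every Bcl6LKOFxrKO liver was above every FxrKO liver, and the lowest of them, liver 8, was still well above the highest FxrKO liver. The means were 17.9 ± 4.43 and 81.5 ± 18.3 CPM (SD, n = 4 each), and the fitted fold was 4.54 (95% interval 3.37 to 6.12). On the log2 scale the change was 2.18 with a standard error of 0.20 (edgeR adjusted p = 6.18e-06).

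The promoters of Cyp26a1 and of the retinoic acid receptor gene Rarb, which rose as well, are shown because both hold a direct repeat of the kind that RAR and RXR are known to bind, namely the DR5 element, 2 half-sites of the nuclear receptor type with 5 bases between them. It was searched on both strands of the 250 bases before each start. Such a repeat was found in 0.0883% of 32851 promoter windows. RefSeq windows of build GRCm38.p6 (mm10) were held for 8 of the 9 enzymes, all but Rdh10, and Cyp26a1 was the 1 with a match, on its reverse strand. Among the other retinoid genes tested, 29 of 36 had a window and Rarb was the 1 with a match, on the forward strand. Capitals mark the repeat, which begins 32 bases before the start in Cyp26a1 and 53 bases before it in Rarb. The Cyp26a1 window is chr19:37697558-37697807 (forward strand) and the Rarb window is chr14:16575477-16575726 (reverse strand).
Cyp26a1: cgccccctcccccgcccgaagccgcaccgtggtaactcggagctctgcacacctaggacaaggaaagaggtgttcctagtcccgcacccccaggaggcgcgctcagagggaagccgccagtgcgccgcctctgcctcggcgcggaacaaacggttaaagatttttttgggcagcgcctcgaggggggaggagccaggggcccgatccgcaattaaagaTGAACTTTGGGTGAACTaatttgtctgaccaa
Rarb: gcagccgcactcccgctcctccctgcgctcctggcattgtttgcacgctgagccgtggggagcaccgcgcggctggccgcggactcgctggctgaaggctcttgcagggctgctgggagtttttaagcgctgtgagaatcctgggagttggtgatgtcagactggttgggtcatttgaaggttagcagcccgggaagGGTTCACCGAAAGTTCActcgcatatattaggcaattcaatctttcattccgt
These matches describe letters only, and no binding was measured. No enzyme's window held the same half-sites with 2 bases or 1 base between them (DR2 and DR1), against 0.174% and 0.164% of all windows. Of the other retinoid genes Bco1 was the 1 with a DR1, beginning 56 bases before its start, and none had a DR2.

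Cyp26b1 (mm10 chr6:84571414-84593810, reverse strand), the second hydroxylase of the family in this set, did not pass the test. It was counted at 4.88, 4.37, 4.62 and 6.05 CPM in FxrKO livers. In Bcl6LKOFxrKO livers 5 to 8 it was at 8.95, 1.82, 14.7 and 6.71 CPM, so that 3 livers lay above every FxrKO liver and liver 6 below all of them. The log2 difference was 0.70, with a 95% interval from -0.34 to 1.74 (edgeR adjusted p = 0.290), or a fold of 0.791 to 3.33. Without liver 6 the log2 difference was 1.01 with an adjusted p of 0.0139. Liver 6 gave 15 reads for this gene, against 74 to 151 in the other Bcl6LKOFxrKO livers. The ratio of Cyp26a1 to Cyp26b1 within a liver, per kb, was 8.41 to 12.8 in FxrKO livers and 18.6 to 126 in Bcl6LKOFxrKO livers, highest in liver 6.

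Rdh16 (mm10 chr10:127801153-127815839, forward strand), a hepatic retinol dehydrogenase, was the other enzyme that rose. Its CPM was 161, 138, 199 and 187 in FxrKO livers and 356, 230, 348 and 330 in Bcl6LKOFxrKO livers 5 to 8. The genotypes did not overlap, although liver 6 lay nearer to the FxrKO livers than the other 3 did. The means were 171 ± 27.2 and 316 ± 58.4 CPM (SD, n = 4 each), and the log2 fold change was 0.89 with a standard error of 0.16 (edgeR adjusted p = 0.00112). The Rdh16 promoter is shown because, of the 8 enzymes with a window, it was the 1 with the letters TTCNNNGAA, which are of the type known to be bound by BCL6 and by STAT factors. These letters read the same on both strands and were present in 7.02% of all windows, and a narrower form of them, TTCCNGGAA, which Rdh16 also holds, in 0.913%. Of the 29 other retinoid genes with a window, Aldh8a1 and Rarb held the wider form, which in Rarb lies inside the DR5. As for the DR5, these matches describe letters only, and binding was not examined here. The match in Rdh16, in capitals, begins 230 bases before the start in the window chr10:127800903-127801152 (forward strand).
Rdh16: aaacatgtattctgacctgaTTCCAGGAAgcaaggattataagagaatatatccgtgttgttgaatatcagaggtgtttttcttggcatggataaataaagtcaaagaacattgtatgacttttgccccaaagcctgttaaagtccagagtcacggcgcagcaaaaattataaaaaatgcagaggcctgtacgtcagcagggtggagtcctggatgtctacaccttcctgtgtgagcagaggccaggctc

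Rdh16 lies in a cluster of short-chain dehydrogenase genes on chromosome 10 that also holds Rdh9 and Rdh7. From Rdh1 to Hsd17b6 the cluster spans 248 kb and 9 rows of the table, of which 8 were tested. Rdh1, Rdh16 and Rdh16f2 were called higher and none lower by edgeR, against 16.2% and 13.5% of all genes tested. Rdh1, counted in FxrKO livers by only 6 to 15 reads, went from 0.749 to 1.42 CPM there to 12.4 to 13.7 CPM, a log2 fold change of 3.76 with a standard error of 0.22 (adjusted p = 8.68e-08). Rdh16f2 went from 88.6 to 128 CPM to 297 to 383 CPM, a log2 fold change of 1.66 with a standard error of 0.14 (adjusted p = 2.38e-06). Both genes, like Rdh16, had no overlap between genotypes.

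Rdh7 (mm10 chr10:127884027-127888733, reverse strand), the most abundant enzyme of the 9 per kb, lies within the same cluster and was nearly level. It was at 1222, 1355, 1323 and 1268 CPM in FxrKO livers and at 1257, 1205, 1160 and 1303 CPM in Bcl6LKOFxrKO livers, and the ranges overlapped. The log2 difference was -0.07 with a 95% interval from -0.31 to 0.17, or a fold of 0.809 to 1.12. Rdh9 (mm10 chr10:127776405-127792697, forward strand), a retinol dehydrogenase of the same kind, varied widely within each genotype, at 97.7, 54.7, 75.7 and 112 CPM in FxrKO livers and 104, 45.8, 139 and 177 CPM in Bcl6LKOFxrKO livers. Liver 6 was again the lowest of all. The log2 difference of Rdh9 was 0.46 (95% interval -0.47 to 1.38, edgeR adjusted p = 0.430), and without liver 6 it was 0.71 with an adjusted p of 0.0461. Within a liver, the ratio of Rdh16 to Rdh7 per kb was 0.0506 to 0.0746 in FxrKO livers and 0.0947 to 0.149 in Bcl6LKOFxrKO livers.

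The genes of this cluster resemble each other in sequence, and reads had to map to a single place to be counted. Of the 100-base windows of the GENCODE transcripts, 6.66% for Rdh16, 6.43% for Rdh9 and 4.12% for Rdh7 also occurred exactly in a transcript of a gene at another locus, and 31.9%, 39.9% and 21.0% lay within 4 mismatches of another gene of the cluster. Exons of Rdh9 also overlap those annotated for Rdh16f1, and exons of Rdh16 those of Rdh18-ps, on the same strand, so the levels of Rdh9 and Rdh16 are uncertain to that extent. When the counts of the copies were summed into 1 row, the log2 difference was 0.28 with an adjusted p of 0.0866, a row in which Rdh7 holds most reads. Rdh10, Rdh11, Dhrs3, Cyp26a1 and Cyp26b1 shared no 100-base window exactly with another gene.

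**Figure D2:**
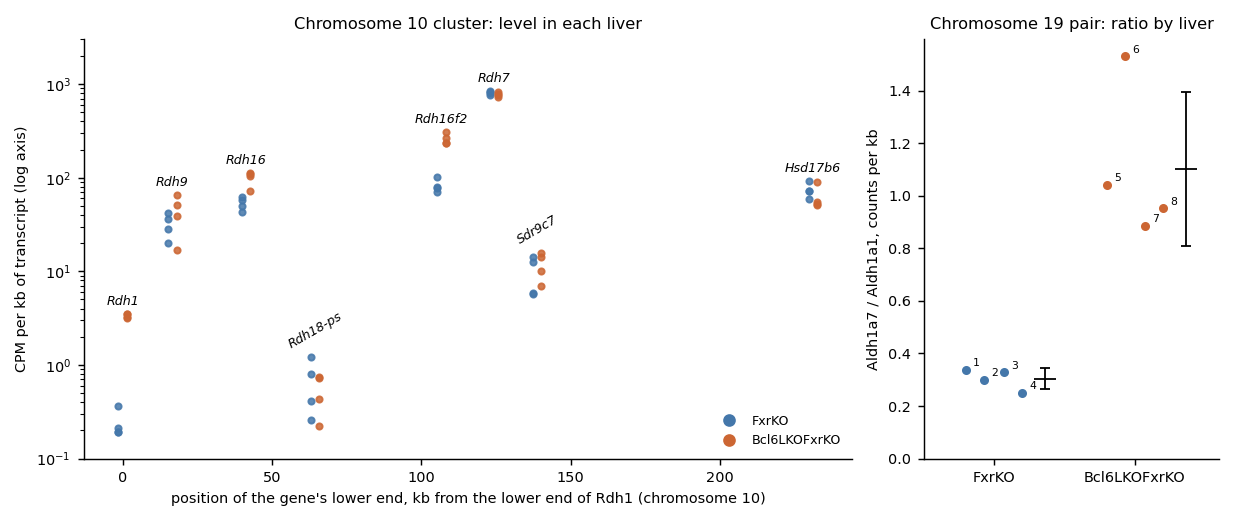
Left, CPM per kb (log axis) in each liver of the 8 tested genes of the chromosome 10 cluster, placed by distance in kb from the lower end of Rdh1, for FxrKO (blue) and Bcl6LKOFxrKO (orange). Right, the ratio of Aldh1a7 to Aldh1a1 per kb in each liver (numbered), with mean and SD. Rdh1, Rdh16 and Rdh16f2 are separated by genotype while the dots of Rdh7 overlap, and the ratio is 0.250 to 0.337 in FxrKO and 0.887 to 1.53 in Bcl6LKOFxrKO livers.

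Rdh10 (mm10 chr1:16105882-16132550, forward strand), the retinol dehydrogenase best known for its role in embryos, was a low gene in these livers. It was at 19.2, 17.7, 17.6 and 17.5 CPM in FxrKO livers and at 17.0, 17.3, 14.4 and 12.2 CPM in Bcl6LKOFxrKO livers. All 4 Bcl6LKOFxrKO livers were below the FxrKO livers, but livers 5 and 6 by little, and the log2 difference of -0.25 (95% interval -0.55 to 0.06) did not pass the test (edgeR adjusted p = 0.2095). With total counts alone as the scale, under which the median of all genes tested moved to -0.15, it was -0.41 with an adjusted p of 0.0417.

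The retinal reductases did not pass the test. Rdh11 (mm10 chr12:79174233-79191855, reverse strand) was at 80.2, 69.0, 82.8 and 63.3 CPM in FxrKO livers and at 101, 91.7, 97.7 and 75.8 CPM in Bcl6LKOFxrKO livers. Liver 8 fell within the FxrKO range and the other 3 above it, for a log2 difference of 0.31 (95% interval 0.04 to 0.58, edgeR adjusted p = 0.0827). It was called higher by limma voom with sample weights (0.39, adjusted p = 0.0165) and without liver 8 (0.39, adjusted p = 0.0180). Dhrs3 (mm10 chr4:144893077-144928209, forward strand), a reductase whose gene is itself known to respond to retinoic acid, was at 160, 144, 126 and 113 CPM in FxrKO livers. In Bcl6LKOFxrKO livers it was at 122, 115, 99.8 and 145 CPM, within or just below that range. Its log2 difference was -0.17 (95% interval -0.48 to 0.13, adjusted p = 0.386), and on the linear scale the interval ran from a fold of 0.719 to 1.10.

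Aldh1a1 (mm10 chr19:20492583-20643463, forward strand), the main cytosolic retinal dehydrogenase of liver, was at 1921, 1675, 1920.45 and 2231 CPM in FxrKO livers. In Bcl6LKOFxrKO livers 5 to 8 it was at 2153, 1285, 2264 and 2136 CPM, and liver 6 was the lowest of all 8. The log2 difference was 0.02 (95% interval -0.36 to 0.39, adjusted p = 0.953). Its neighbour Aldh1a7, which lies 49.5 kb away on the opposite strand of chromosome 19 and whose product is closely related, rose. Aldh1a7 was at 446, 345, 434 and 384 CPM in FxrKO livers and at 1545, 1354, 1382 and 1400 CPM in Bcl6LKOFxrKO livers, with no overlap and little spread. Its log2 fold change was 1.82 with a standard error of 0.12 (edgeR adjusted p = 3.28e-07), and the ratio of Aldh1a7 to Aldh1a1 per kb was 0.250 to 0.337 in FxrKO livers and 0.887 to 1.53 in Bcl6LKOFxrKO livers. Just 1 of 2259 windows of 100 bases of Aldh1a1 occurred exactly in Aldh1a7, while 16.5% lay within 4 mismatches of it. Summed as 1 row, the pair was higher by 0.53 on the log2 scale (edgeR adjusted p = 0.0135). Whether the product of Aldh1a7 oxidizes retinal was not examined.

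Liver 6 thus had the lowest level of its genotype for 4 of the 9 enzymes, Aldh1a1, Rdh9, Rdh16 and Cyp26b1, and liver 2 that of the FxrKO livers for 5, which include the same 4 and Cyp26a1. In log2 CPM, the deviation of liver 6 from the mean of its genotype was -0.57 for Aldh1a1, -1.18 for Rdh9, -0.44 for Rdh16 and -1.71 for Cyp26b1. For Cyp26a1 it was 0.10, for Rdh7 -0.03 and for Rdh10 0.20, so these did not share the low level. Glul, Oat, Cyp2e1 and 7 other genes that are known to be most active in hepatocytes around the central vein, listed after their values were seen, were set beside them. Of these 10, 9 were lowest of their genotype in liver 6, with a deviation of -0.55 for Glul, which makes glutamine, and -0.60 for Oat, an ornithine aminotransferase. Liver 2 was lowest of the FxrKO livers for 5 of the 10. Livers 2 and 6 also had the fewest counted reads of their genotypes, at 7586241 and 9156775. The scaling factor for composition was lowest in liver 6, at 0.901. The share of all genes tested that were lowest in either liver was not counted. Of 6 genes of hepatocytes around the portal vein, listed in the same way, 4 (Cyp2f2, Hal, Sds and Gls2) were highest of their genotype in liver 6, Pck1 was lowest there, with a deviation of -0.45, and Ass1 was neither. The summed level of the first list was 12713.5 to 17232 CPM in FxrKO livers, and 4613 CPM in liver 6 against at most 7803 CPM in the other Bcl6LKOFxrKO livers. Cyp2e1 made up most of this sum in FxrKO livers, at 9124 to 13110 CPM, but not in Bcl6LKOFxrKO livers, at 2111 to 3510 CPM. The other 9 genes summed to 3589 to 4122 CPM in FxrKO livers and to 2501 (liver 6) to 4293 CPM in Bcl6LKOFxrKO livers. Between genotypes Cyp2e1 was called lower, Slc1a2 and Rhbg were called higher, and the other 7 were not called. The summed level of the second list was 2875 to 5076 CPM in FxrKO livers and 1508 to 2049 CPM in Bcl6LKOFxrKO livers, with liver 6 at 1872. Of its 6 genes, Cyp2f2 and Pck1 were called lower and none higher. Over all genes tested, 16.2% were called higher and 13.5% lower. Their part in the levels of the enzymes was not tested.

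**Figure D3:**
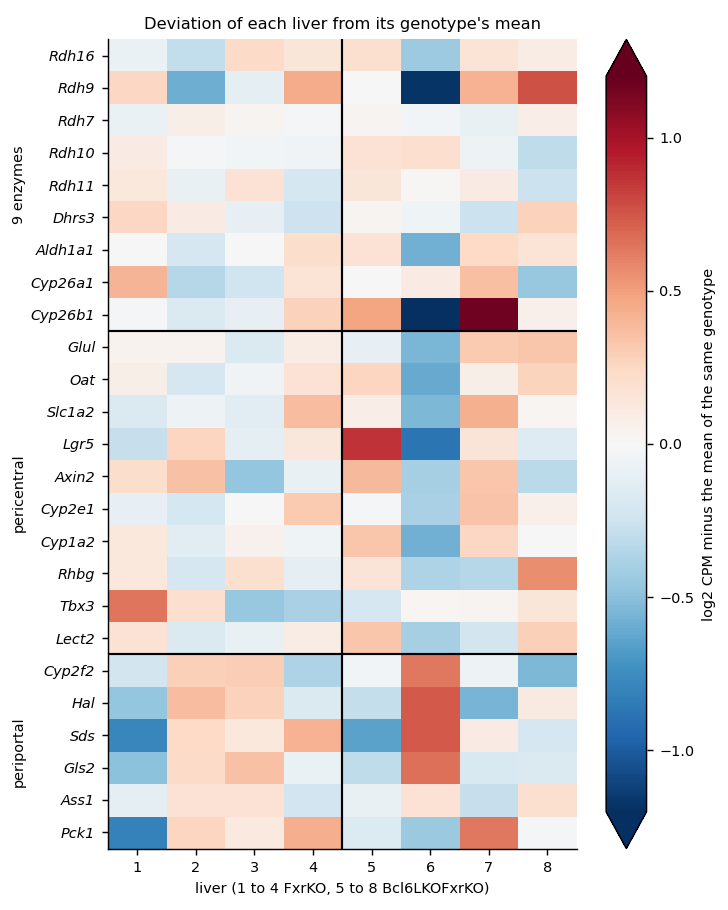
Deviation of each liver (columns) from the mean of its genotype in log2 CPM (colour) for the 9 enzymes, 10 pericentral and 6 periportal hepatocyte genes (rows). In liver 6 the cells of Rdh16, Rdh9, Aldh1a1, Cyp26b1 and 9 of the 10 pericentral genes are blue (below the mean), and of the periportal genes Cyp2f2, Hal, Sds, Gls2 and Ass1 are red and Pck1 is blue.

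The other retinoid genes listed numbered 50, of which 49 were in the table and 36 were tested. This list, too, was chosen with earlier results of these data known, so its shares are a description. Of these 36, 11 were called higher (30.6%) and 10 lower (27.8%), and 15 did not pass, against 16.2% and 13.5% called among all genes tested. With total counts alone the split was 8 higher and 15 lower, while over all genes tested it moved from 1994 higher and 1665 lower to 1403 higher and 2956 lower. The median log2 fold change of the 36 was -0.04, and the median of its size was 0.65, against 0.31 for all genes tested.

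**Figure D4:**
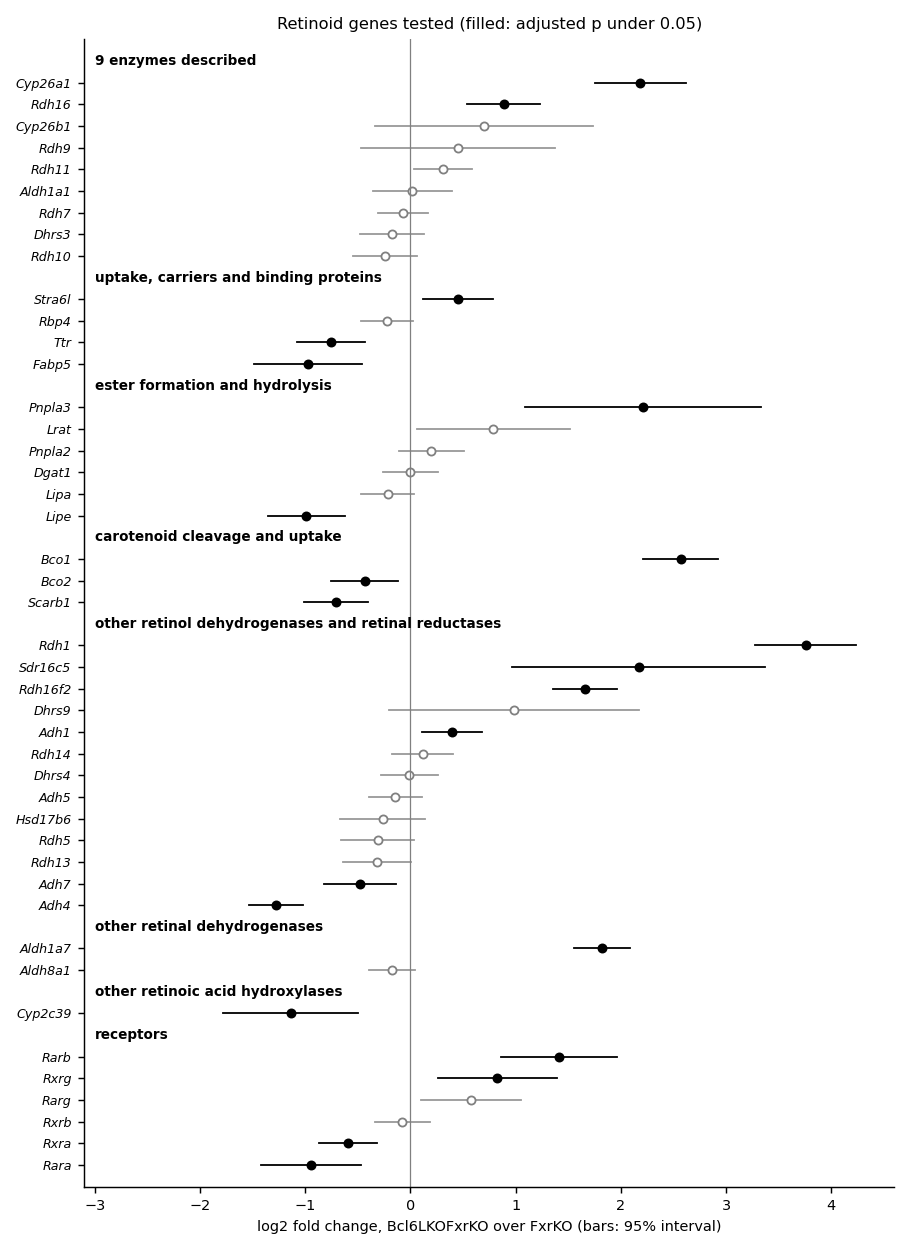
Log2 fold change of Bcl6LKOFxrKO over FxrKO livers (x axis, points) with 95% intervals (bars) for the 9 enzymes and 35 of the 36 other retinoid genes tested, grouped by role. Filled points are called at an adjusted p under 0.05, and the largest are Rdh1 at 3.76, Bco1 at 2.57, Pnpla3 at 2.21 and Cyp26a1 at 2.18, with Adh4 lowest at -1.28.

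Of the carriers and binding proteins, 5 of 10 were tested. Of these, 2 were called higher and 2 lower, against 16.2% and 13.5% of all genes tested. Stra6l, a receptor for the serum retinol-binding protein, rose by 0.45 (adjusted p = 0.0404), a call that was lost when any of livers 2 to 6 was left out, with values of 0.37 to 0.51. Ttr, which carries that binding protein in serum, fell from 3894 to 4685 CPM to 2124 to 3165 CPM (log2 fold change -0.76, adjusted p = 0.00219). Fabp5, a fatty acid-binding protein that also takes retinoic acid, fell by 0.97 on the log2 scale (adjusted p = 0.00972; -0.96 and 0.0589 without liver 8). Rbp4, the serum carrier itself, stayed short of a call at -0.22 (95% interval -0.47 to 0.03).

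Lrat is abundant in stellate cells. Of 8 stellate cell markers 6 were called higher and none lower, against 16.2% and 13.5% of all genes tested, and their summed level was 82.1 to 118 CPM in FxrKO livers and 178 to 221 CPM in Bcl6LKOFxrKO livers. Lrat, which makes retinyl esters and is 1 of the 8, had a log2 difference of 0.79 that did not pass (adjusted p = 0.0969). Hepatocyte markers, which sum to 51659 to 63553 CPM in FxrKO and 142714 to 158907 CPM in Bcl6LKOFxrKO livers, counted 2 higher, Alb and Asgr1, and 1 lower, Ttr, of 6. The rise in that sum is that of Alb, since the other 5 summed to 13473 to 15650 CPM in FxrKO and 11166 to 15092 CPM in Bcl6LKOFxrKO livers. The lists for bile duct cells (2 of 4 tested; Krt7 and Cftr, at 17 counts or fewer, were not), sinusoidal endothelium (1 of 5), macrophages (1 of 5) and portal fibroblasts (1 of 4) had those numbers called higher and none lower. The part of these cells in the retinoid values was not tested.

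Among the 6 genes of ester formation and hydrolysis, 1 rose and 1 fell, against 16.2% and 13.5% of all genes tested. Pnpla3, a lipase known to release retinol from esters, was at 1.498 to 5.57 CPM in FxrKO livers and 11.3 to 37.9 CPM in Bcl6LKOFxrKO livers, highest in liver 6 (log2 fold change 2.21, standard error 0.49, adjusted p = 0.0100421). Lipe, the hormone-sensitive lipase, fell by 0.99 (adjusted p = 0.000856), from 19.1 to 30.4 CPM to 10.6 to 15.1 CPM. Of the carotenoid genes, Bco1, which cleaves beta-carotene into retinal, rose from 5.61 to 7.37 CPM to 31.2 to 48.4 CPM (log2 fold change 2.57, standard error 0.16, adjusted p = 1.70e-07). Scarb1, a scavenger receptor that takes up carotenoids and cholesterol, fell by 0.71 (adjusted p = 0.00214). Bco2, which cleaves carotenoids at another bond, fell by 0.43 (adjusted p = 0.0415), and this call was lost without liver 1, 2, 3, 4, 6 or 8, with values from -0.48 to -0.33.

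Of the other retinol dehydrogenases and retinal reductases 13 of 18 were tested. Of these, 4 were called higher and 2 lower, against 16.2% and 13.5% of all genes tested. Beside Rdh1 and Rdh16f2, the higher ones were Adh1 and Sdr16c5, which fell outside the naming rule and are given because the count is small. Adh1, a cytosolic alcohol dehydrogenase that oxidizes ethanol and retinol, was at 1817 to 2402 CPM in FxrKO and 2680 to 3244 CPM in Bcl6LKOFxrKO livers (log2 fold change 0.40, adjusted p = 0.0381), a call lost without liver 1, 2, 4, 5, 7 or 8, with values of 0.32 to 0.44. Sdr16c5 was at most at 5.23 CPM, and its genotypes overlapped (2.17, standard error 0.55, adjusted p = 0.0114). Adh4 fell from 87.5 to 119 CPM to 40.1 to 45.9 CPM, without overlap (log2 fold change -1.28, standard error 0.12, adjusted p = 5.91e-06). Adh7, at most at 12.9 CPM, fell by 0.48 (adjusted p = 0.0378), a call lost without liver 1, 3, 4, 5, 6 or 7, with values from -0.52 to -0.36. Rdh19 gave no counts in FxrKO livers and did not pass the filter, and Rdh16f1 had no row.

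Of the 3 other hydroxylases 1 was tested: Cyp2c39, which can hydroxylate retinoic acid, went from 2.04 to 4.16 CPM to 1.18 to 1.95 CPM (log2 fold change -1.14, standard error 0.30, adjusted p = 0.0120). Aldh8a1, a retinal dehydrogenase listed in the same class as Aldh1a7, was at -0.18 (95% interval -0.40 to 0.05). Of the 6 receptor genes 2 were called higher and 2 lower, against 16.2% and 13.5% of all genes tested. Rarb, a well known target of retinoic acid, was at 3.12 to 5.90 CPM in FxrKO livers and 8.36 to 14.8 CPM in Bcl6LKOFxrKO livers (log2 fold change 1.41, standard error 0.25, adjusted p = 0.00115). Rara fell from 19.6 to 36.9 CPM to 11.5 to 18.3 CPM (-0.95, adjusted p = 0.00648), and Rxra, the most counted of the 6, from 575 to 635 CPM to 331 to 484 CPM (-0.60, adjusted p = 0.00365). Rxrg rose by 0.82 from a low level (adjusted p = 0.0312), and lost the call without any 1 of livers 1, 2, 4, 5, 7 and 8, with values from 0.68 to 0.82.

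The genes whose log2 CPM over the 8 livers was most like that of Cyp26a1, among the 9096 tested genes counted 50 times or more per liver on average, were Nid1 (Pearson r = 0.993), Myo5b (0.990) and Gc (0.987). These r values hold the difference between the genotypes and the shared libraries, and are a description. Nid1, a basement membrane protein, rose by 2.58 on the log2 scale, with a standard error of 0.21 (adjusted p = 2.15e-06). The log2 fold changes of Myo5b, a motor of vesicle transport, and Gc, the serum carrier of vitamin D, were 1.03 and 0.67 (adjusted p = 5.87e-05 and 0.000973).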

How the data were processed

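Poly(A) RNA of 8 mouse livers, 4 per genotype, was sequenced as 100-base single-end reads from stranded libraries. Per the paper's methods and the submitters' processing notes, the authors aligned reads to mm10 with STAR 2.5.2, let each read map to 1 place with 4 mismatches at the most, and deposited raw read counts summed over each gene's exons by HOMER 4.10 (1 transcript per gene; the header names no strand option). The deposited table also gives each transcript's length in bases. The paper names DESeq2 for its differential expression.

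For the tests, edgeR 4.0.16 in R 4.3.3 took these counts through filterByExpr by genotype, TMM factors, a robust quasi-likelihood fit over all 8 livers, and Benjamini-Hochberg adjustment over 12340 genes. Calls were made at an adjusted p under 0.05 alone. CPM used the TMM factors. Each standard error was computed as the size of the log2 fold change over the square root of the quasi-likelihood F statistic. The 95% intervals were built on these standard errors with the degrees of freedom of the fit, so both are approximate. Alternatives used DESeq2 1.42.0, limma 3.58.1, other scalings and filters, summed copies, and each liver left out. Counts of this comparison were also simulated for 12218 genes with 200 of them changed. There edgeR recovered 75.7% of those at a log2 fold change of 1 and 97.8% at 2, with 4.44% false calls. The real comparison had far more genes called, 1994 higher and 1665 lower, so these rates need not hold for it. All libraries of 1 genotype differed beyond sampling noise (chi-square per degree of freedom 10.7 or more). Totals of 7586241 to 11839503 counts leave the least counted genes imprecise.

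The 9 genes and all lists were chosen with earlier results of these data known. Named pathway genes are, per class and direction, the 2 called genes with the smallest adjusted p, plus near-identical copies of the 9. A gene that this rule would name is not reported here. The marker lists covered hepatocytes, stellate cells, bile duct cells, sinusoidal endothelium, macrophages and portal fibroblasts. Pericentral and periportal lists were added after values were seen. The livers are separate samples by their labels; titles and genotype gave the groups. Promoter windows came from RefSeq (GRCm38.p6) and transcripts and exons from GENCODE, both of the mm10 assembly.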

Additional observations from a re-analysis of the deposited data

Results flagged for a closer look

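In each genotype the 28 genes checked were searched for 1 liver that lay far from the other 3 (the gap to the nearest other liver over the whole range, above Dixon's 95% critical value for 4 samples). Of 56 such groups 4 had one, or 7.14%, where chance gives about 1 in 20. For Aldh1a1, liver 6 stood below the other Bcl6LKOFxrKO livers at 1285 CPM, with a ratio of 0.870. For Rdh10, liver 1 stood above the other FxrKO livers at 19.2 CPM, with a ratio of 0.862 over a narrow range. Rdh1 was highest of the FxrKO livers in liver 4, at 1.42 CPM or 15 reads, with a ratio of 0.876. Adh7 was lowest of the Bcl6LKOFxrKO livers in liver 7, at 6.81 CPM, with a ratio of 0.883. Liver 6 was also lowest of its genotype for Rdh9, Rdh16 and Cyp26b1, which did not reach the critical value.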

How the results depend on the processing

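The calls of Cyp26a1, at log2 fold changes of 2.03 to 2.33, held under all 15 alternatives, and that of Rdh16 held in all but 1: with the chromosome 10 copies summed, the row was at 0.28 (adjusted p = 0.0866), since Rdh7 gives most of its reads. That row also reversed the sign of Rdh7. The number of enzymes called higher was 2 to 4 when 1 liver was left out, 4 without liver 6, where 14.9% of all genes were called higher, and the number called lower went from 0 to 1 (Rdh10, -0.41) with total counts alone. Leaving out 1 liver put Rdh9 at 0.18 (without liver 8) to 0.71, Rdh11 at 0.24 to 0.39 and Cyp26b1 at 0.24 to 1.01. With limma voom Rdh11 was at 0.39. Aldh1a1, near 0 throughout, changed sign with total counts alone (-0.13), with the 50 most counted genes left out before TMM (-0.0023) and with no filter on low counts (-0.0074). It ranged from -0.058 to 0.16 with 1 liver left out, and was at 0.53 with Aldh1a7 summed. The causes were not tested. Of the 21 named pathway genes 15 kept their call under every alternative in which they were tested. These runs were all added after the values were seen. Rdh1 and Sdr16c5 could not be tested with at least 10 counts in every liver. Stra6l, Fabp5, Bco2, Adh1, Adh7 and Rxrg each lost the call with at least 1 of the livers left out. Calls were also lost for Stra6l, Adh1 and Rxrg with total counts alone (0.29, 0.24 and 0.67), for Adh1 with no filter on low counts (0.37, adjusted p = 0.0588), and for Bco2 with limma voom (-0.33, adjusted p = 0.0622) and with at least 10 counts in every liver (-0.41, adjusted p = 0.0524). No paired analysis was made, because the genotypes share no replicate numbers. Some titles carry consecutive animal numbers across genotypes, but no label ties these to a litter, batch or day. Genes with few reads, such as Cyp26b1 and Rdh1 in FxrKO livers, are limited by depth.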
